A study of Mus musculus with 6 samples.

Results

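Wnt ligands, their Frizzled receptors and secreted inhibitors of the Sfrp and Dkk families were examined for promoter occupancy by tagged TEAD4 in C2C12 myotubes. Members were all genes whose array symbol begins with Wnt, Fzd, Sfrp or Dkk followed by a digit. The rule gave 36 of the 16839 gene symbols on the arrays, with 19 Wnt, 9 Fzd, 4 Sfrp and 4 Dkk genes and 1293 probes. All 36 had at least 1 measured window, 19 on array design 1 and 17 on design 2.

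C2C12 cells are mouse myoblasts that stop dividing and fuse when serum is lowered. The TEAD4 group held cells infected with a retroviral vector for Flag-HA-tagged TEAD4, and the control group held cells infected with the empty vector. Both groups were under puromycin selection, differentiated over 5 days with 2% horse serum and were then fixed (0.4% formaldehyde, 10 min). An anti-Flag antibody was used for the precipitation in both. There were 2 TEAD4 samples, called duplicates in the labels, and 1 control sample, each hybridised to 2 promoter array designs (6 arrays). TEAD4 was thus expressed from a vector as a tagged protein on top of the cells' own TEAD4, in infected populations rather than single clones. Nothing in the labels says that the duplicates were separate cultures, so the spread between them, the only one behind the p-values, may be technical. Most of the weight in that spread came from all regions of an array design together, not from a gene's own values. The arrays measured DNA, so neither the level of the tagged protein nor the expression of any Wnt gene was read.

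Wnt ligands are secreted glycoproteins that bind Frizzled receptors together with co-receptors such as Lrp5, Lrp6, Ror2 or Ryk. One branch of the pathway stabilises beta-catenin, which then acts with Tcf and Lef factors in the nucleus, and other branches act on cell polarity and calcium. Sfrp proteins bind Wnt ligands outside the cell, and Dkk1 blocks the pathway by binding Lrp5 and Lrp6. In muscle, Wnt signals help to specify the embryonic myogenic lineage and act on satellite cells and fusing myoblasts. TEAD4 is a DNA-binding factor of the Hippo pathway that recruits YAP and TAZ.

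Occupancy was measured as log2 of precipitated (IP) over input signal, centred on each array's median. A value of 1 is thus 2-fold over the array's median ratio, called 2-fold over input here. Before centring, the median log10 ratio was -0.191 and -0.166 on the control arrays of designs 1 and 2. On the TEAD4 arrays it lay between -0.005 and 0.003. Centring therefore raised the control values and hardly moved those of TEAD4. Values were averaged over windows, which are a probe and its neighbours within 500 bp on each side, with at least 3 probes. A negative distance is upstream of the annotated start. Over all 428020 windows TEAD4 sample 1 had an SD of 0.38, TEAD4 sample 2 of 0.40 and the control of 1.04. Extended dynamic range was switched on for the control arrays, unlike the TEAD4 arrays. That setting and the sample cannot be told apart. At member probes the median IP signal was 4.04 and 4.78 times background in the TEAD4 samples and 2.25 times in the control, and the median input signal was 3.32 and 3.31 times background in the TEAD4 samples and 6.27 times in the control. Known YAP and TEAD target genes (Ankrd1, Cyr61, Ctgf) and myotube genes (Myog, Acta1, Chrng, Mymk) were enriched over input in both TEAD4 samples. The mean was 2.11 ± 0.42 (SD, n = 2) at Ankrd1, with -0.12 in the control, and 2.14 ± 0.35 (SD, n = 2) at Myog, with 1.02 in the control. Ctgf was lower, at 1.06 and 1.48 in the TEAD4 samples with 0.56 in the control. Ankrd1, Cyr61, Chrng and Mymk had a window where each TEAD4 sample was 2-fold over input and also 2-fold above the control. Ctgf, Myog and Acta1 had no such window, so not every known gene stood clear of the control.

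Among the 36 members, Wnt11 was the one gene that reached 2-fold over input in the same window of both TEAD4 samples. Of all 16533 genes, 5.19% had such a window. This rule of size has no test. The highest TEAD4 window of a member had a median of 0.31, against 0.40 over all genes, although members had a median of 35.5 windows each and all genes 25. The median was 0.40 for the 19 Wnt genes, 0.29 for the 9 Fzd genes, 0.20 for the 4 Sfrp genes and 0.15 for the 4 Dkk genes. No difference between families was tested. Of the 1211 member windows, 2 were 2-fold over input in both TEAD4 samples (0.165%), both at Wnt11, against 0.660% of all genes' windows. No member had a window 2-fold below input in both samples, and 0.327% of all genes did. By this rule the count over input was 1 member in sample 1 alone (8.05% of all genes) and 5 members in sample 2 alone (15.5% of all genes). Those 5 were Wnt11, Fzd7, Fzd2, Wnt1 and Wnt10b, and Wnt1 and Wnt10b had the same highest window.

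**Figure D1:**
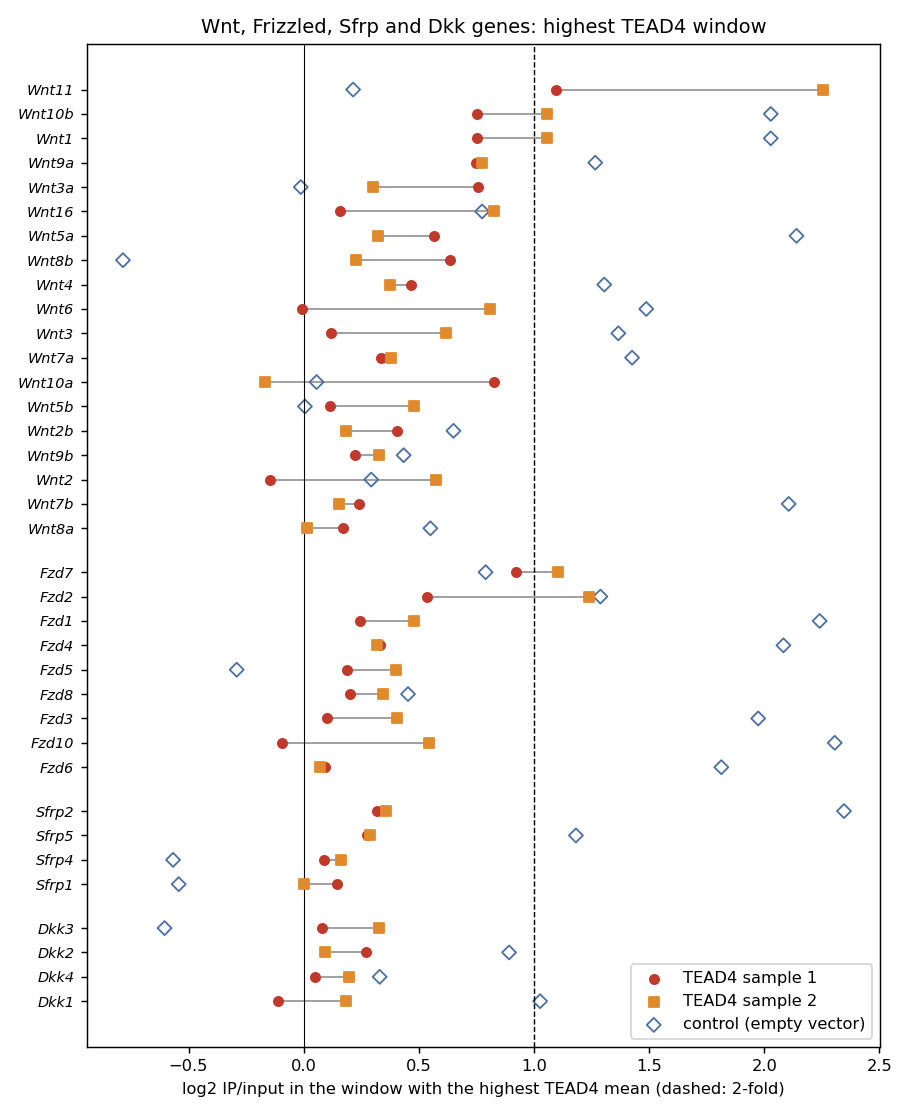
Log2 IP/input (horizontal axis) of each of the 36 members in the window with its highest TEAD4 mean, by family, with TEAD4 sample 1 as circles, TEAD4 sample 2 as squares and the empty-vector control as open diamonds. The dashed line marks 2-fold over input, and only Wnt11, at 1.10 and 2.26, has both TEAD4 points beyond it, with its control at 0.21.

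Wnt11 is a ligand best known for signalling on cell polarity without beta-catenin. Its highest window lay at -5154 bp from the RefSeq start used by the array, on chromosome 7 from 98708855 to 98709244 in the coordinates of the files. Their genome build is not named in the sources at hand. TEAD4 samples 1 and 2 had 1.10 and 2.26 there, a mean of 1.68 ± 0.82 (SD, n = 2), and the control had 0.21. Both TEAD4 values lay above the control, and this mean stood at the 98.5th percentile of all genes' highest windows. In limma against input, Wnt11 was called higher with an adjusted p of 0.00119 over all its windows. Its window of lowest p was not this one but another, with a TEAD4 mean of 1.66.

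The Wnt11 signal was at the outer edge of the tiled region, and the window held 3 probes. Of these, the probe at -4976 bp had 1.80 and 3.86 in the TEAD4 samples and 0.08 in the control. The probe at -4822 bp had 0.94 and 2.37 in the TEAD4 samples and -0.20 in the control. The outermost probe at -5154 bp was lower in both TEAD4 samples, at 0.54 and 0.53, with 0.77 in the control. Enrichment in the TEAD4 samples thus peaked inside the window and was larger in sample 2 at both of the high probes.

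Towards the gene, the TEAD4 signal of Wnt11 declined while that of the control rose to its maximum. The window at -4976 bp had 1.10 and 2.22 in the TEAD4 samples and 1.49 in the control. Its TEAD4 mean, 1.66, is that of the window of lowest p in limma against input. The control lay above TEAD4 sample 1 there. At -4234 bp the TEAD4 samples had 0.33 and 0.82, and the control had 3.83, its highest window at this gene. At 12 bp the TEAD4 samples had -0.10 and -0.32, and the control had 1.95. The array annotation also gives an Ensembl start for Wnt11 that lies 2716 bp upstream of the RefSeq start. Measured from it, the enriched window was at -2438 bp. The annotation marks all probes of this window as promoter.

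**Figure D2:**
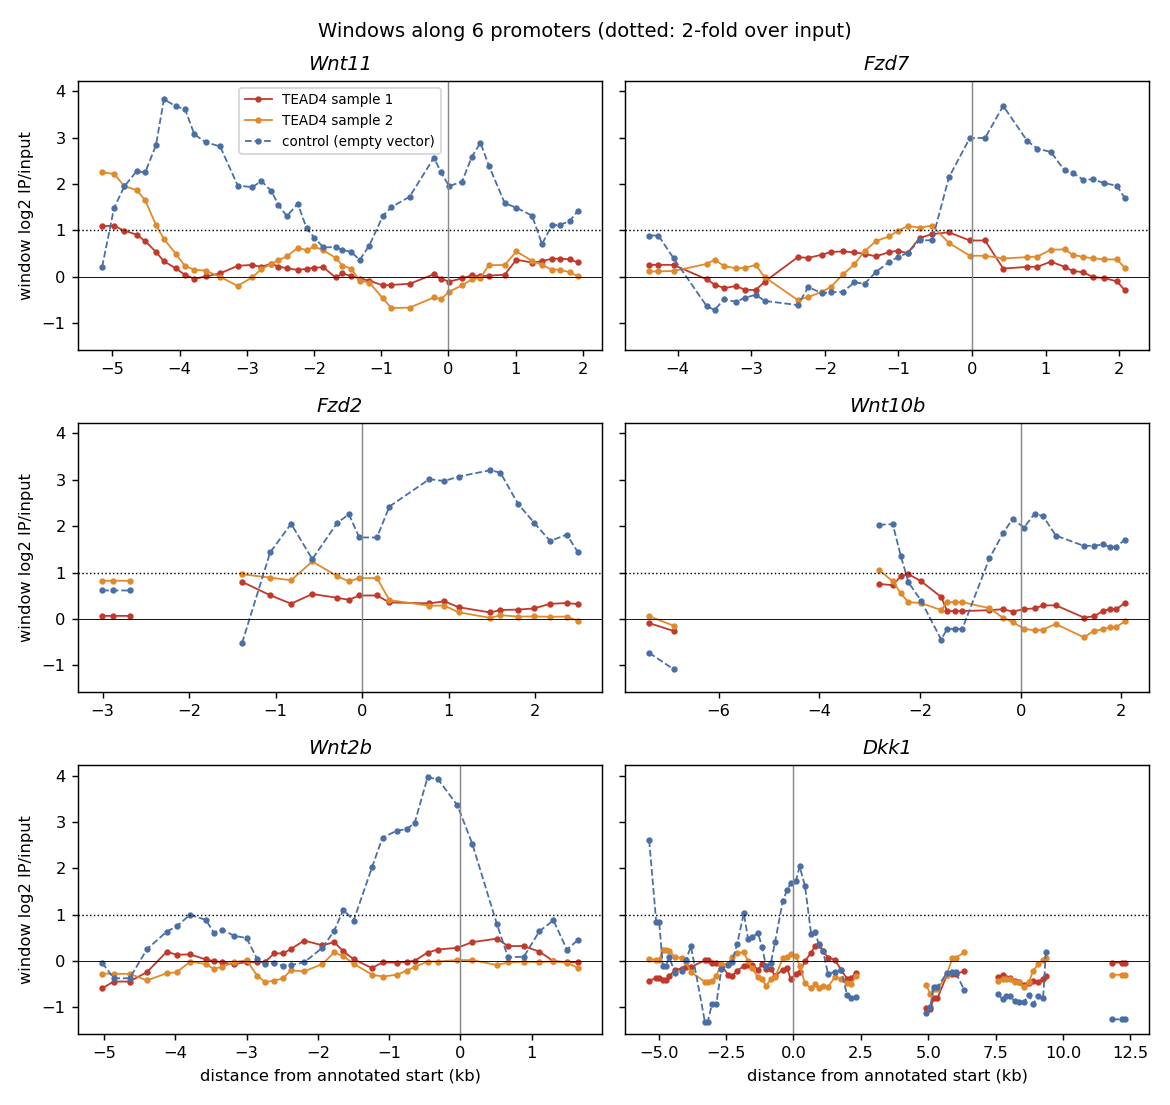
Window log2 IP/input (vertical axis) against distance from the annotated start in kb for 6 members, with TEAD4 samples 1 and 2 as solid lines, the control as a dashed line and lines broken over gaps of more than 1 kb. At Wnt11 the TEAD4 samples are highest at the far left (1.10 and 2.26) where the control is at 0.21, and at Wnt2b the control reaches 3.96 with the TEAD4 samples at 0.18 and -0.01.

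The receptor Fzd7, which is known in mouse satellite cells as a receptor for Wnt7a, came next. At -541 bp its TEAD4 samples had 0.92 and 1.10, a mean of 1.01 ± 0.13 (SD, n = 2), and the control had 0.79. Sample 1 was just short of 2-fold and sample 2 just past it. The TEAD4 signal at Fzd7 spanned several neighbouring windows, with 0.84 and 1.06 in the TEAD4 samples at -711 bp against 0.78 in the control. Downstream of the start the control was far higher, at 3.69 in the window at 424 bp, where the TEAD4 samples had 0.18 and 0.40. limma called Fzd7 higher than input, with an adjusted p of 0.00681.

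Wnt10b and Wnt1 lie next to each other on chromosome 15 and shared their highest window, so they are 1 observation. Wnt1 is the founding member of the family and, from the dorsal neural tube of vertebrate embryos, induces early myogenic genes, and Wnt10b holds back adipogenic differentiation. The window ran from 98608543 to 98609266, at -2814 bp from Wnt10b and -8892 bp from Wnt1. The TEAD4 samples had 0.75 and 1.05 there, a mean of 0.90 ± 0.21 (SD, n = 2), and the control was higher than both at 2.03. At the starts themselves the TEAD4 samples had 0.21 and -0.21 at Wnt10b, with 1.97 in the control, and 0.12 and -0.07 at Wnt1, with 2.44 in the control.

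Fzd2, a receptor that responds to Wnt5a, had 0.54 and 1.24 in the TEAD4 samples at -576 bp, a mean of 0.89 ± 0.50 (SD, n = 2), and 1.29 in the control. A window at -1388 bp differed from the control more: the TEAD4 samples had 0.80 and 0.96, and the control had -0.52. Both TEAD4 samples were close to each other there and clear of the control, but the window held 3 probes. Wnt9a, a ligand known from joint formation, had 0.75 and 0.77 in the TEAD4 samples at 2223 bp, a mean of 0.76 ± 0.02 (SD, n = 2), and 1.27 in the control.

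limma over input, with Benjamini-Hochberg adjustment over all genes, called 6 members higher (23.9% of all genes): Wnt11, Fzd7, Wnt10b, Wnt1, Fzd2 and Wnt9a. The count holds Wnt10b and Wnt1 as 2 genes, though both calls came from their shared window. It called 2 members lower (11.8% of all genes), and both encode secreted inhibitors. Dkk1, at 5076 bp, had -1.03 and -0.70 in the TEAD4 samples and -0.98 in the control, with an adjusted p of 0.0162. Sfrp2, at 1562 bp, had -0.94 and -0.57 in the TEAD4 samples and -0.15 in the control, with an adjusted p of 0.0316. The share of members called higher, 16.7%, and that called lower, 5.56%, were both below the shares over all genes. With probes limited to 2000 bp from the start the counts were 3 and 1.

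The other Wnt genes had lower values, and how close the TEAD4 samples lay to each other varied from gene to gene. Wnt3a, which signals through beta-catenin, had 0.76 and 0.30 in the TEAD4 samples and -0.01 in the control at -3657 bp. Wnt16, a ligand with a role in bone, had 0.16 and 0.82 in the TEAD4 samples and 0.77 in the control at -5030 bp. The TEAD4 samples differed by more still at Wnt10a, with 0.83 and -0.17, and at Wnt6, with -0.01 and 0.81. Wnt7a, the ligand that acts on satellite cells in mouse muscle, was even but low, at 0.34 and 0.38 in the TEAD4 samples with 1.43 in the control.

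Below Wnt16, the means of the highest TEAD4 windows of the other Wnt genes lay between 0.09 at Wnt8a and 0.45 at Wnt5a. Those of the other Fzd genes ran from 0.08 at Fzd6 to 0.36 at Fzd1. Among the inhibitors the highest mean was 0.34, at Sfrp2. The lowest of all members were Fzd6, a receptor of hair follicle polarity, at 0.09 and 0.07 in the TEAD4 samples with 1.81 in the control, Sfrp1, at 0.14 and 0.00 with -0.54 in the control, and Dkk1, at -0.11 and 0.18 with 1.03 in the control. Fzd3 had windows only between -9802 and -8022 bp, shared with Fbxo16, so its start was not measured. Wnt5b shared windows with Fbxl14, and Sfrp4 with Epdr1.

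RefSeq promoters (GRCm38.p6) were matched by symbol for 24 members, 27 promoters in all, and were read over the 250 bases before each start. The core of the TEAD site, CATTCC or its reverse complement GGAATG, was in 0 of the 27 and in 12.6% of 32851 promoters of that length. The search covers only these letters in this stretch. The highest windows of Wnt11, Wnt10b, Wnt1 and Wnt9a lie outside it, and that of Fzd7 is centred outside it, at -541 bp. The count thus says nothing about sites in those windows. Members' promoters were richer in G and C, with a median of 68% against 52.4% in all promoters, and held a median of 22 CpG dinucleotides against 6. The promoters of the 4 leading members with an entry are shown, for Fzd7, Wnt10b and Wnt1 to set that base composition beside the values. For Wnt11 only the upstream of its 2 RefSeq promoters is shown, with 70.8% G and C. The downstream promoter (98838595-98838844 on the same chromosome) had 56.8% G and C and 16 CpG dinucleotides. The Wnt11 values cannot be assigned to either promoter, so the sequence shown is not paired with them. Capitals mark CpG dinucleotides. Wnt11 (upstream of its 2 RefSeq starts, chr7:98834862-98835111, plus strand) had 37, Fzd7 (chr1:59481897-59482146, plus strand) 17, Wnt10b (chr15:98778151-98778400, minus strand) 14 and Wnt1 (chr15:98789607-98789856, plus strand) 23.
Wnt11: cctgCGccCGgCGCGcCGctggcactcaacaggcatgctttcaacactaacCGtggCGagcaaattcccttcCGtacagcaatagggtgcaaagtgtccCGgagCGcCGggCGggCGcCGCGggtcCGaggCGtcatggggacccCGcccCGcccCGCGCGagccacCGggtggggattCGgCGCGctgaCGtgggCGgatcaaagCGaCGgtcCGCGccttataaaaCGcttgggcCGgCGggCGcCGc
Fzd7: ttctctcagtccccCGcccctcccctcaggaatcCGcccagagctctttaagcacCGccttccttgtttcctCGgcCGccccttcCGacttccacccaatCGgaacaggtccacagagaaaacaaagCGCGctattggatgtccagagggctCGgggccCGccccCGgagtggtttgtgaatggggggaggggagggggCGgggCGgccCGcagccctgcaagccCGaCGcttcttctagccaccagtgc
Wnt10b: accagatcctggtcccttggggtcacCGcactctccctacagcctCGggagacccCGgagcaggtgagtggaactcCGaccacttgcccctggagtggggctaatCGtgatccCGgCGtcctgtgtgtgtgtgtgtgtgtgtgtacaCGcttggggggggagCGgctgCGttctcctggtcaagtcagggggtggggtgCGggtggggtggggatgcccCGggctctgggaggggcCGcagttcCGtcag
Wnt1: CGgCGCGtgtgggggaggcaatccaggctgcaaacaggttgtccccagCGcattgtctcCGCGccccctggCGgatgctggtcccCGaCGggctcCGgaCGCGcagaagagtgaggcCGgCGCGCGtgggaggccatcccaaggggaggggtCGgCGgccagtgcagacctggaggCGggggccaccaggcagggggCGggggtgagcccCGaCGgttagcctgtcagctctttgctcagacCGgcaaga

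At the annotated starts used here the members showed little TEAD4 signal. For some members, such as Wnt10b and Dkk1, the annotation also gives transcripts that start over 500 bp away, and these were not used. In the window nearest the start and within 500 bp of it, measured for 35 members, the median was 0.13 in TEAD4 sample 1, -0.05 in TEAD4 sample 2 and 1.97 in the control. Over all 15586 genes with such a window it was 0.20 and 0.15 in the TEAD4 samples and 1.34 in the control. No member reached 2-fold over input there in either TEAD4 sample, against 1.73% and 3.30% of all genes in samples 1 and 2. In the control 30 members (85.7%) did, against 61.0% of all genes. The highest start windows in the TEAD4 samples were those of Fzd7, at 0.78 and 0.45 with 2.99 in the control, and of Fzd2, at 0.50 and 0.88 with 1.76 in the control.

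**Figure D3:**
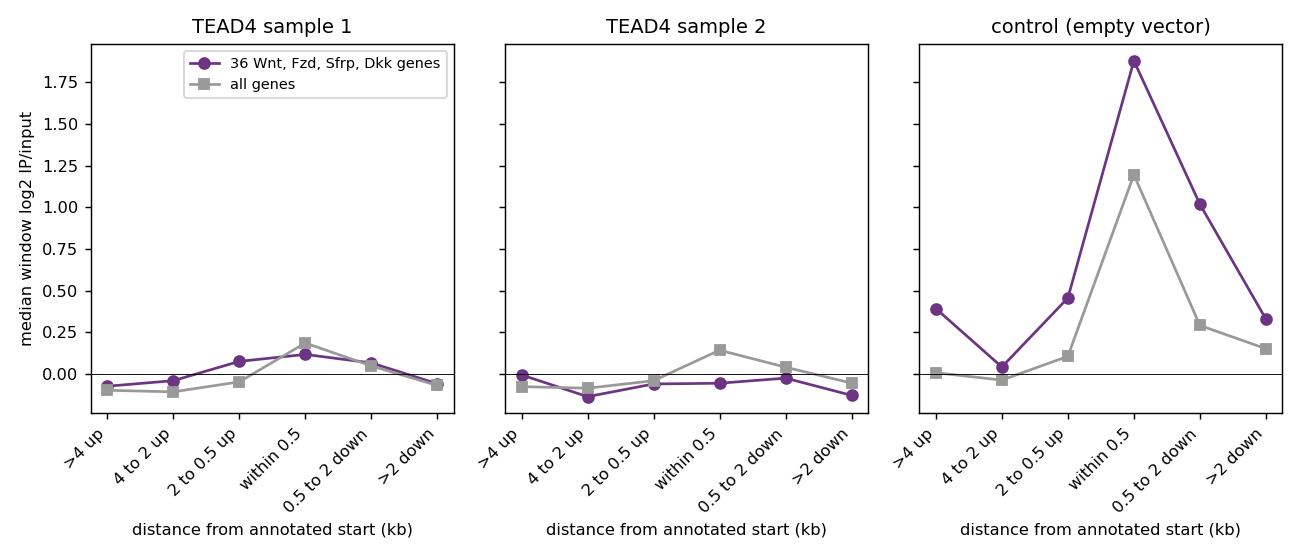
Median window log2 IP/input (vertical axis) in 6 bins of distance from the annotated start, upstream to downstream, for the 36 members (circles) and all genes (squares), with TEAD4 samples 1 and 2 left and the control right. Within 500 bp of the start the members' medians are 0.12 and -0.05 in the TEAD4 samples, where all genes have 0.19 and 0.14, and 1.88 in the control, where all genes have 1.20.

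The start signal moved with base composition, most in the control. Members with more than 1 RefSeq promoter, Wnt11 and Wnt5b, were left out here, since a start window cannot be assigned to 1 of them. Across the 22 members with 1 promoter sequence and a start window, Spearman's rho between G and C content and the window value was 0.44 in TEAD4 sample 1, 0.25 in TEAD4 sample 2 and 0.51 in the control. Across all 8134 genes chosen the same way it was 0.39 in TEAD4 sample 1, 0.21 in TEAD4 sample 2 and 0.62 in the control. In the control the median start window was -0.30 over all genes with under 40% G and C and 2.40 over those with over 70%. That top bin held 11 of the 22 members and 938 of the 8134 genes. These are descriptions across genes of the same arrays, which are not independent points, and the part of base composition in the members' values was not tested.

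**Figure D4:**
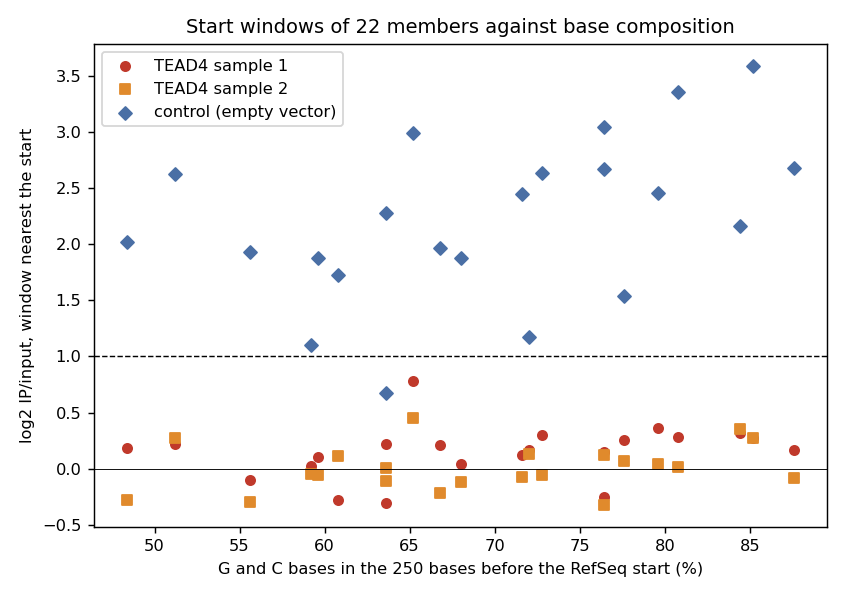
Log2 IP/input of the window nearest the start (vertical axis) against the percentage of G and C in the 250 bases before the RefSeq start for the 22 members with 1 RefSeq promoter, with TEAD4 sample 1 as circles, TEAD4 sample 2 as squares and the control as diamonds. All TEAD4 points lie below 2-fold (dashed), the highest being 0.78 at Fzd7, while the control reaches 3.59 at Wnt4, whose promoter is 85.2% G and C.

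The empty-vector control had a window high over input at nearly all members and at most genes, though not always near the start. By the 2-fold rule over input 34 of the 36 members passed, all but Dkk4 and Wnt8a, against 85.6% of all genes. The rule needs any 1 window, and members had a median of 35.5 windows each and all genes 25. Of the members' windows 36.9% were 2-fold over input in the control, against 26.6% of all genes' windows. The median of the highest control window, which also depends on the number of windows, was 2.67 for members and 2.11 for all genes. The highest were Wnt2b, a ligand of the beta-catenin branch, at 3.96, the receptor Fzd3 at 3.89 and Wnt11 at 3.83. The Fzd3 window lay at -9000 bp, and the start of that gene was not measured. The highest control window of Wnt5b, 1.88, lay at -9467 bp, and its start window had 0.01 in the control. With normexp background correction, a model-based subtraction of local background, 14 members and 19% of all genes passed.

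TEAD4 was therefore compared with a control that was itself the higher of the 2 groups at most of these genes. The 2-fold rule again needed any 1 window, and by the median members had more windows each than all genes. By it 35 of the 36 members, all but Wnt8a, had a window below the control in both TEAD4 samples, against 81.8% of all genes. limma also called these 35 lower, against 81% of all genes. Its error came from the TEAD4 duplicates alone, while the control had 1 sample with a wider spread over windows, so these limma calls measure no spread of the control. limma also called the target genes Ankrd1, Cyr61 and Ctgf lower, by -3.77, -2.71 and -2.51 in their windows of lowest p. Yet Ankrd1 was 2.23 above the control in its highest TEAD4 window. The myotube genes Acta1, Chrng and Mymk were called higher than the control, and Myog was not called. At Wnt2b the window at -462 bp had 0.18 and -0.01 in the TEAD4 samples and 3.96 in the control. At Fzd3, in a window at -9000 bp, the TEAD4 samples had 0.25 and 0.03 and the control had 3.89. At Fzd5, a receptor of the developing eye, they had -0.41 and -0.22 and the control had 3.35. At Wnt4, a ligand of kidney development, the TEAD4 samples had 0.28 and 0.29 and the control had 3.81. Other processing ended most of limma's lower calls, over all genes as over the members. With the arrays of a design scaled to a common spread (median absolute deviation) the member count was 0 (0.206% of all genes). It was 2 (3.13%) with quantile normalization and 4 (4.86%) with normexp.

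In the opposite direction limma called 0 members higher in TEAD4 than in the control, and also 0 at an unadjusted p under 0.05, against 12.4% and 12.5% of all genes. Each gene had 1 direction, that of its window of lowest p, so a gene called lower could not be called higher and these counts of 0 say little about single windows. By the 2-fold rule in both samples 4 members had such a window, Fzd2, Wnt5a, Wnt8b and Sfrp4, against 29.9% of all genes. The largest mean difference was at Wnt11, at 1.46 in the window at -5154 bp, but sample 1 was less than 2-fold above the control there. Next was Fzd2, at 1.40 in the window at -1388 bp.

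Wnt5a, a ligand of the branch without beta-catenin, had 0.09 and -0.24 in the TEAD4 samples at -3919 bp and -1.37 in the control. Wnt8b, a ligand of the developing forebrain, had 0.63 and 0.23 in the TEAD4 samples at 2499 bp and -0.78 in the control. That window held 3 probes, and with windows of at least 5 probes the highest TEAD4 mean of Wnt8b was 0.11. Sfrp4 had -0.03 and 0.20 in the TEAD4 samples at -1924 bp and -1.06 in the control. In these 3 genes the TEAD4 samples were near or moderately above input and the control was below it. No member passed the 2-fold rule over input and over the control at once in TEAD4 samples 1 and 2, and 2.55% of all genes did.

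The TEAD4 samples were less correlated with each other over the members than over all windows. Pearson's r between TEAD4 samples 1 and 2 was 0.42 over 1104 distinct member windows and 0.57 over all windows. Between TEAD4 sample 1 and the control it was 0.36 over the members and 0.33 over all windows, and between TEAD4 sample 2 and the control 0.21 and 0.23. By Spearman's rho over the member windows, TEAD4 sample 1 was closer to the control (0.41) than to TEAD4 sample 2 (0.32), and over all windows it was closer to TEAD4 sample 2 (0.51) than to the control (0.36). Overlapping windows share probes and all values share the array designs, so these are descriptions.

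Other genes of the pathway were followed from a list of 63, of which 58 had a window. Of these, 2 passed the 2-fold rule over input (3.45%, against 5.19% of all genes). Lef1, a nuclear partner of beta-catenin, had 1.05 and 2.96 in the TEAD4 samples at -1714 bp, a mean of 2.01 ± 1.35 (SD, n = 2), and the control was as high at 2.09. Dvl3, which relays the signal from Frizzled inside the cell, had 1.499 and 1.21 in the TEAD4 samples at 796 bp, a mean of 1.36 ± 0.20 (SD, n = 2), with 1.77 in the control. limma called 16 of the 58 higher than input (27.6%, against 23.9% of all genes) and 3 lower (5.17%, against 11.8%). The 3 lower, named after their values were seen, were the receptor Ror1, at -0.80 and -1.24 with -1.03 in the control, Sostdc1, a secreted antagonist, at -0.96 and -0.62 with -0.88 in the control, and Rspo3, a secreted enhancer of Wnt signals, at -0.72 and -0.61 with 0.94 in the control.

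Against the control limma called 1 gene of the list higher (1.72%, against 12.4% of all genes) and 56 lower (96.6%, against 81%), with the same limit on its error as above. The one higher, also named after its values were seen, was the co-receptor Lrp6, at 0.41 and 1.03 in the TEAD4 samples and -0.80 in the control in a window at 812 bp. By the 2-fold rule 13 genes of the list were above the control in both TEAD4 samples (22.4%, against 29.9% of all genes). The median of the highest TEAD4 window was 0.47 for the list, against 0.31 for the members and 0.40 for all genes.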

How the data were processed

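Per the file headers, the deposited intensity values came from Agilent's Feature Extraction software, version 9.5.3.1: IP (Cy5) and input (Cy3) signals, 4 µg DNA each per the labels' protocols, background-subtracted and dye-normalized. The deposited log10 ratios are IP over input, and the series matrix values equal them (largest difference 0). They differ from log10 of the processed signals by over 0.001 at 78 to 136 spots on each TEAD4 array and at 1805 and 1303 spots on the control arrays of designs 1 and 2.

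Each array's log2 of IP over input was centred on its median. After removal of control spots, unplaced probes and probes with a non-uniform spot, design 1 had 236180 probes and design 2 had 235690. A gene had the windows whose central probe was annotated with it. At member probes 99.9%, 100% and 96.3% were well above background in both channels in TEAD4 samples 1 and 2 and the control, and 0 were saturated. The number of arrays limits the precision.

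Windows were fitted with limma 3.58.1 (R 4.3.3) within each design. The TEAD4 duplicates gave 1 residual degree of freedom, and there were 13.4 and 13.9 prior degrees of freedom on designs 1 and 2. The prior SD, drawn from all windows of a design, was 0.239 and 0.216, and the p-values rested mostly on it. At the highest Wnt11 window the duplicates' own SD was 0.82. The lone control was taken to vary as the duplicates do. Each gene had a Simes p over its windows, adjusted by Benjamini-Hochberg over 16533 genes at a two-sided 0.05, with its direction from the window of lowest p. Rules of size used a 2-fold threshold.

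Genes were named if they passed the rule over input, had the 8 highest windows, the 4 highest or lowest differences from the control, the 3 highest control windows or the 3 lowest top windows. Others are named with counts or ranges, except that Wnt5b, Wnt6, Wnt7a and Wnt10a are given with values though they met none of these rules. All 58 list genes were matched to RefSeq names by accession. The members, lists and rules were chosen with earlier results of these data known. Alternatives were other background corrections, normalizations, windows, filters and thresholds, and each TEAD4 sample left out.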

Additional observations from a re-analysis of the deposited data

How the results depend on the processing

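Shares of all genes at the same setting stand in brackets. The count of members over input in both TEAD4 samples, 1 as reported (5.19%), was 0 with normexp (3.35%), with windows of 1000 bp on each side (2.21%), with probes within 2000 bp of the start (4.03%) and at 3-fold (0.78%), 2 with window medians (5.59%), and 6 with arrays scaled to a common spread (15.3%), with quantile normalization (27.9%) and at 1.5-fold (20.2%). It was 5 without TEAD4 sample 1 (15.5%) and 1 without sample 2 (8.05%). At the same settings the pathway list, 2 as reported, had 1 with normexp and window medians, 0 with windows of 1000 bp and at 3-fold, 9 with a common spread, 19 with quantile normalization, 15 at 1.5-fold, 9 without TEAD4 sample 1 and 2 without sample 2. The count over both input and control, 0 as reported (2.55%), was 1 with window medians (Fzd2, 3.07%). It was 2 with a common spread (9.04%) and at 1.5-fold (9.11%), and 3 with quantile normalization (17.2%). It was 1 without TEAD4 sample 1 (Wnt11, 8.26%) and 0 without sample 2 (3.87%). Members above the control, 4 as reported (29.9%), were 2 with normexp (7.97%), with at least 5 probes (16.5%), with a common spread (12.5%) and within 2000 bp (19.4%), 7 with loess (28.4%), 0 with windows of 1000 bp (13.1%) and at 3-fold (4.75%), 11 with window medians (44.3%), 18 at 1.5-fold (63.4%), 9 without TEAD4 sample 1 (46%) and 8 without sample 2 (42.3%). Members below the control, 35 as reported (81.8%), were 9 with normexp (10.8%) and 22 with a common spread (31.7%) or quantile normalization (30.8%). They were 35 without TEAD4 sample 1 (84.9%) and 36 without sample 2 (86.4%). The control was over input at 14 members with normexp (19%). limma over input called 3 members higher within 2000 bp (22.4%), and lower 0 with normexp (0.296%) and 1 with quantile normalization (6.25%) or within 2000 bp (7.06%). Against the control it called 4 higher with loess (20.8%), 1 with at least 5 probes (12.9%) and 2 with quantile normalization (6.51%). It called 4 lower with normexp (4.86%), 0 with a common spread (0.206%) and 2 with quantile normalization (3.13%). The members' median highest TEAD4 window, 0.31 as reported, was 0.692 with quantile normalization (0.825 over all genes). It was 0.37 without TEAD4 sample 1 (0.488 over all genes) and 0.384 without sample 2 (0.442 over all genes). These summaries otherwise stayed within 1.5 times (counts) or the spread between the TEAD4 samples (median).

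The highest TEAD4 windows of the 17 named members moved by more than that spread in 56 of their values under alternatives, and stayed within it in 147. Within 2000 bp of the start Wnt11 had 0.458 and Wnt1 0.106. Wnt9a had 1.23 with normexp, and Fzd6 had -0.0349 with windows of 1000 bp. Without TEAD4 sample 1 Wnt16 had 0.971, and without sample 2 Wnt5a had 0.768. The cause of these shifts was not tested.

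No paired analysis was possible because the TEAD4 group has replicates 1 and 2 and the control has replicate 1 only. Leaving out a TEAD4 sample leaves no residual degree of freedom, so limma has no value there. The 1 control sample has no replicate, and its median IP signal at member probes was 2.25 times background. The enriched Wnt11 window rests on 3 probes at the edge of the tiling.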
